A study of Homo sapiens with 4 samples.

Results

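The genes described here encode actins and the proteins that bind or regulate them. They were the 10 genes ACTB, ACTG1, PFN1, CFL1, TMSB10, ARPC2, ACTN1, ACTN4, PAK1 and CTTN, chosen by a rule on gene symbols. Their rows hold 19 of the 63714 transcripts and 10 of the 27685 genes in the tables. RNA was measured in HT-29 cells, an established human colon cancer line that grows as an epithelium. Control vector-expressing cells, whose genotype is labelled WT, were compared with cells stably expressing TRIM40 with a Myc tag (Myc-TRIM40), a ubiquitin ligase of the TRIM family. No other treatment was given, and RNA was sequenced in 2 independent experiments, each with 1 library per condition. The vectors were delivered by viral transduction followed by drug selection, and whether the resulting lines were pools or clones is not given in the sources used here.

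Actin is a monomer that assembles into filaments, and filaments under the plasma membrane hold epithelial cells in shape and anchor their junctions. Profilin loads monomers for addition to growing ends, thymosins keep monomers in reserve, and cofilin severs old filaments. The Arp2/3 complex starts branches that cortactin stabilizes, and alpha-actinins tie filaments into bundles. Kinases such as PAK1 and ROCK1 steer these steps, and the study asked whether TRIM40 acts on this system.

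Library totals ran from 60954602 to 67424698 reads. Under Myc-TRIM40 the TRIM40 gene had 272646 reads in experiment 1 and 110665 in experiment 2, and both controls had 0, a count that allows up to 3. Of 8 epithelial markers, 7 were over 1 TPM (a share of transcripts, scaled by their length) in every library and the intestinal factor CDX1 was at 0.66 to 0.92 TPM. The summed markers of leukocytes were at 15.3 to 31.8 TPM, of fibroblasts at 0.57 to 2.19 TPM and of endothelium at 0.12 to 0.30 TPM. PTPRC, the common leukocyte antigen, had 0 to 4 reads, and most of the leukocyte sum was CD68. The control library of experiment 2 stood apart. Weighted by reads, its mean transcript length was 2899 bases, against 3412 to 3664 bases in the other 3 libraries.

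ACTB and ACTG1 encode the beta and gamma cytoplasmic actins, the pair found in nearly every non-muscle cell. Their coding sequences have the same length of 1128 bases and match at 1029 positions, which is 91.2%. The longest identical run is 59 bases. The 90 bases from the start codon of each are shown because reads from such similar genes could be split between them, and capitals mark the 17 positions at which they differ.
ACTB: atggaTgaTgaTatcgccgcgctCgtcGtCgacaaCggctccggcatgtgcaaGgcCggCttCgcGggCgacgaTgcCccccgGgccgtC
ACTG1: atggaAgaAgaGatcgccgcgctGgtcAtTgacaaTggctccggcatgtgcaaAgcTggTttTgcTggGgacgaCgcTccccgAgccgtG
Differences fall throughout the stretch. Over the whole ACTB transcript, 3 of 1713 windows of 100 bases also occur in another annotated gene, the pseudogene ACTBP2, and 0 of the 1912 windows of ACTG1 do.

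In experiment 1 ACTB was at 5162 CPM in the control and 4392 CPM under Myc-TRIM40, and in experiment 2 at 5163 CPM in the control and 3751 CPM under Myc-TRIM40. CPM here and in what follows is a gene's share of its library's reads, with library sizes scaled by TMM factors that follow the bulk of genes. On this scale the controls were level with each other and both Myc-TRIM40 libraries lay below them. By TPM the controls were at 6077 and 4738 and the Myc-TRIM40 libraries at 5415 and 4421, so the groups overlapped. In RNA of a whole culture, fewer cells with a transcript and less of it per cell cannot be told apart. The locus of ACTB in hg19 is chr7:5566779-5570232, and it is listed with 1 transcript. Over both experiments the level was 0.786 times that of the control, a log2 fold change of -0.35 (SE 0.15, 95% interval -0.69 to 0.00014). The unadjusted p of edgeR's quasi-likelihood test, with the 2 libraries of an experiment kept together as a block, was 0.0501 and the Benjamini-Hochberg adjusted p over all genes tested was 0.888. Thus the nearest of the 10 genes to a call did not pass the threshold of 0.05.

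ACTG1 (hg19 chr17:79476997-79479892) was at 3102 and 2665 CPM in the control and Myc-TRIM40 libraries of experiment 1, and at 2757 and 2410 in those of experiment 2. Here too both Myc-TRIM40 libraries lay below both controls, and the log2 ratios of the experiments, -0.22 and -0.19, were close. edgeR gave a log2 fold change of -0.21 (SE 0.16, 95% interval -0.57 to 0.15), with an adjusted p of 0.888. One coding transcript of 1986 bases held 95.6 to 97.7% of the gene's reads in all 4 libraries. The ratio of ACTB to ACTG1 in FPKM, a level per transcript length, was 1.82 and 2.05 in the controls and 1.80 and 1.70 in the Myc-TRIM40 libraries, in the order of the experiments.

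The muscle actins were nearly silent in these cells. ACTC1 and ACTG2, the cardiac and enteric actins, had 0 reads in every library, and the skeletal muscle gene ACTA1 had 0 to 15. ACTA2, the smooth muscle actin, had 77 and 52 reads in the controls and 139 and 76 in the Myc-TRIM40 libraries, and its log2 fold change was 0.68 (edgeR adjusted p = 0.888). ACTBL2 had 5 to 14 reads, with a log2 fold change of 0.98 at the same adjusted p. The POTE genes, which carry an actin-like end, had at most 40 reads each. The 2 of these with enough reads to be tested, POTEKP and POTEF, had log2 fold changes of 0.17 and 1.62 (edgeR adjusted p = 0.972 and 0.888), the latter on 2 to 14 reads. The pseudogene ACTG1P20 had 26 to 202 reads. Compared with 154963 to 329028 reads for the cytoplasmic actins, reads assigned to these relatives were few.

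PFN1 (hg19 chr17:4848945-4852381) encodes profilin 1. It had 1105 and 1010 CPM in the control and Myc-TRIM40 libraries of experiment 1, and 1277 and 918 in those of experiment 2. Both Myc-TRIM40 libraries were below both controls, with a wider gap in experiment 2. In edgeR the log2 fold change was -0.30 (SE 0.19, 95% interval -0.73 to 0.13) and the adjusted p was 0.888. Among the 10 genes, PFN1 shares the largest part of its transcript with another gene: 37 of 1192 windows of 100 bases (3.1%) also occur in the pseudogene PFN1P1.

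CFL1 (hg19 chr11:65622285-65625804) encodes cofilin 1, the severing factor whose phosphorylation lies at the end of the ROCK1 and LIMK1 cascade. Levels were 1476 and 1331 CPM in the control and Myc-TRIM40 libraries of experiment 1, and 1970 and 1387 in those of experiment 2. Again the groups did not overlap, but the control of experiment 2 was 1.34 times that of experiment 1. The log2 fold change was -0.33 (SE 0.18, 95% interval -0.74 to 0.09; edgeR adjusted p = 0.888). In fits of 3 libraries without the block, it was -0.10 when that control was left out and -0.57 when the control of experiment 1 was. The corresponding values were -0.18 and -0.44 for PFN1, -0.32 and -0.38 for ACTB, and -0.27 and -0.15 for ACTG1.

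TMSB10 (hg19 chr2:85132763-85133799) encodes thymosin beta-10, a small monomer-sequestering peptide, and at 482 bases has the shortest transcript of the group. It was at 1749 and 1786 CPM in the control and Myc-TRIM40 libraries of experiment 1, and at 2872 and 1649 in those of experiment 2. A high value in the control of experiment 2 was the only one apart, and the groups overlapped. The log2 ratio was 0.03 in experiment 1 and -0.80 in experiment 2, which was the lowest of the 10 genes there. Over both, edgeR gave -0.39 (SE 0.22, 95% interval -0.89 to 0.12) with an adjusted p of 0.888. Leaving out the control of experiment 2 brought this to -0.0065, whereas leaving out the control of experiment 1 brought it to -0.77.

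ARPC2 (hg19 chr2:219081817-219119071) encodes a structural subunit of the Arp2/3 complex. Its levels were 407 and 396 CPM in the control and Myc-TRIM40 libraries of experiment 1, and 498 and 454 in those of experiment 2. The differences between experiments exceeded those between conditions, and the groups overlapped. The log2 fold change of -0.09 (SE 0.20, 95% interval -0.54 to 0.36) had an edgeR adjusted p of 0.954. It was 0.08 without the control of experiment 2.

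CTTN (hg19 chr11:70244612-70282690) encodes cortactin, which binds Arp2/3 and branch points at the cell cortex. It was at 557 and 529 CPM in the control and Myc-TRIM40 libraries of experiment 1, and at 427 and 498 in those of experiment 2. The lowest value was the control of experiment 2, and the experiments differed in sign, with log2 ratios of -0.08 and 0.22. edgeR gave 0.07 (SE 0.20, 95% interval -0.39 to 0.53; adjusted p = 0.964). The main transcript held 83.5 to 87.2% of the reads.

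ACTN1 and ACTN4 encode the non-muscle alpha-actinins, antiparallel dimers that cross-link filaments in stress fibres and at junctions. ACTN1 (hg19 chr14:69340840-69446083) was at 248 and 245 CPM in the control and Myc-TRIM40 libraries of experiment 1, and at 116 and 170 in those of experiment 2. ACTN4 (hg19 chr19:39138256-39221172) was at 1710 and 1661, then 823 and 1038, in the same order. For both genes the libraries of experiment 1 were high and those of experiment 2 low, the control of experiment 2 the lowest, so that the groups overlapped. In experiment 2 the control held 0.466 times the ACTN1 level and 0.481 times the ACTN4 level of the control of experiment 1. edgeR's log2 fold change was 0.27 for ACTN1 (SE 0.23, 95% interval -0.27 to 0.80; adjusted p = 0.888) and 0.15 for ACTN4 (SE 0.19, 95% interval -0.28 to 0.57; adjusted p = 0.908). Leaving out the control of experiment 2 turned these to -0.24 and -0.33, and leaving out the control of experiment 1 gave 0.81 and 0.68.

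Within a library the ratio between these paralogs moved less than either level. ACTN4 exceeded ACTN1 by 6.48 and 6.68 times in FPKM in the controls, and by 6.37 and 5.74 times in the Myc-TRIM40 libraries. Their coding sequences are 82.5% identical, with 73 bases as the longest identical run. At the 3′ end ACTN4 overlaps CAPN12, a calpain gene, by 341 bases, and CAPN12 had 1277 to 1511 reads. Reads of the kit used here keep their strand, but how the counting treated strand is not given in the sources used here.

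PAK1 (hg19 chr11:77033060-77185108) encodes the p21-activated kinase, which acts on the actin cytoskeleton. It had the narrowest range of the 10 genes. There were 154 and 152 CPM in the control and Myc-TRIM40 libraries of experiment 1, and 142 and 150 in those of experiment 2. All values lay close together and overlapped between groups. The log2 fold change was 0.03 (SE 0.22, edgeR adjusted p = 0.987), with a 95% interval from -0.46 to 0.52, which holds changes in either direction.

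**Figure D1:**
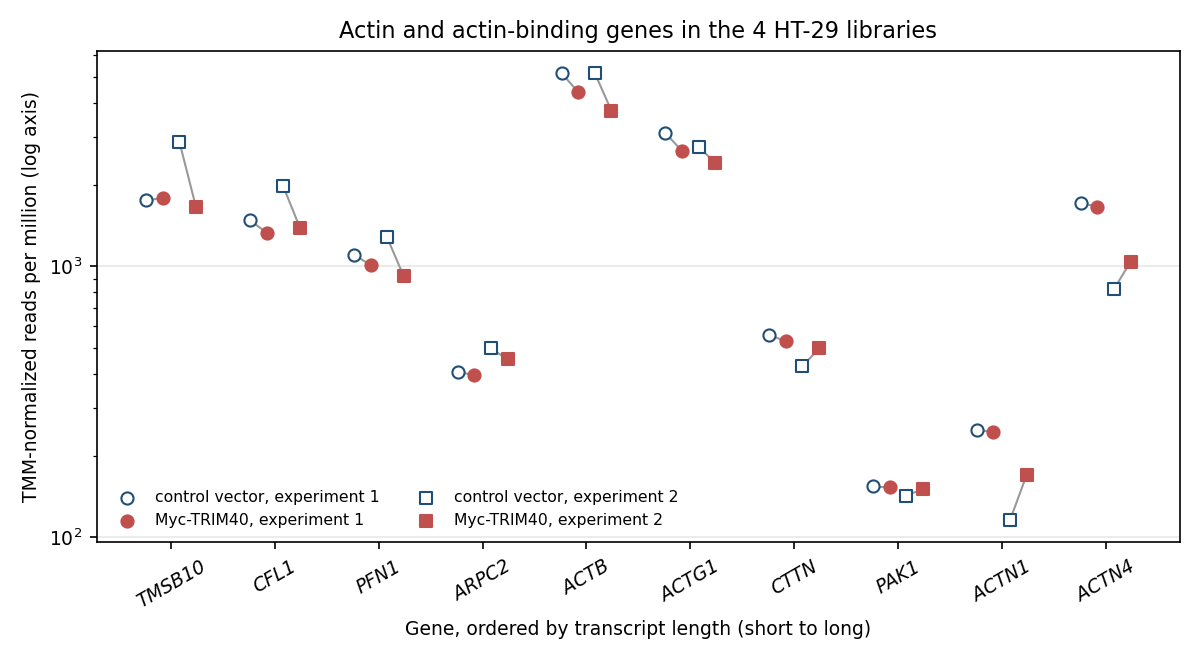
TMM-normalized CPM (log axis) of each of the 10 genes, ordered from the shortest to the longest transcript, with 1 point per library. Open symbols are control vector, filled symbols Myc-TRIM40, circles experiment 1 and squares experiment 2, and grey lines join the libraries of an experiment. Lines run down for ACTB, ACTG1, PFN1 and CFL1 in both experiments, and the open squares of ACTN1 (116) and ACTN4 (823) lie below their other points.

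Across these genes, 0 of 10 were called in either direction by edgeR at an adjusted p of 0.05, where 0.0605% of the 14868 genes tested were called (6, or 0.0404%, higher and 3, or 0.0202%, lower). At an unadjusted p under 0.05 the count was also 0 of 10, against 4.54% of all genes. DESeq2 likewise called 0 of the 10, where it called 0.346% of 15322 genes. It also had 0 of the 10 at an unadjusted p under 0.05. The 559 genes at that level, equal to 3.65% of 15322, can include genes to which DESeq2 gave no adjusted p. With limma on log2(FPKM + 1) the counts were also 0 and 0, against 0.0202% and 4.85% of all genes tested. The 10 genes had enough reads, at least 7375 in every library, that the filter on low counts removed none. Together the 10 genes took 1.57 and 1.52% of all reads in the controls and 1.46 and 1.28% in the Myc-TRIM40 libraries. Their share of TPM was 2.35 and 2.24% in the controls and 2.29 and 1.98% in the Myc-TRIM40 libraries, so there the groups overlapped.

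In TMM-normalized CPM, both Myc-TRIM40 libraries were below both controls for 4 of the 10 genes (ACTB, ACTG1, PFN1 and CFL1). That order was found in 9.67% of all genes tested. None of the 10 had both Myc-TRIM40 libraries above both controls, an order found in 11.0% of all genes. Counting each experiment by itself, 5 of the 10 (the same genes and ARPC2) were lower under Myc-TRIM40 in both, against 26.3% of genes. The other 5 (TMSB10, ACTN1, ACTN4, CTTN and PAK1) changed sign between the experiments, against 45.0% of genes. The 10 genes were chosen with earlier results of these data known, so these shares are a description only. The median log2 ratio of the group was -0.06 in experiment 1 and -0.16 in experiment 2, beside 0.00 and 0.02 for all genes tested.

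In FPKM, which allows levels of different genes to be compared, TMSB10 was the highest at 3428 to 5472, followed by ACTB at 2074 to 2780. These ranges did not overlap. ACTG1 (1218 to 1527) and CFL1 (1059 to 1439) came next and overlapped, and both lay above PFN1 (674 to 859). ACTN4 (190 to 421) and ARPC2 (265 to 305) overlapped, and CTTN (121 to 168) was below both. ACTN1 (28.5 to 65.7) and PAK1 (38.1 to 44.4) overlapped at the bottom. By TPM, TMSB10 ranked 1 or 2 among all genes in every library and ACTB 8 to 17, while PAK1 ranked 1778 to 2269. The order rests on division by length, since ACTB had more reads than TMSB10 in each library, for example 315126 against 106778 in the control of experiment 1.

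Transcript length separated the 10 genes in experiment 2. The 6 genes with transcripts between 482 and 1983 bases (TMSB10, CFL1, PFN1, ARPC2, ACTB and ACTG1) had log2 ratios from -0.80 to -0.13, whereas the 4 between 3249 and 3965 bases (CTTN, PAK1, ACTN1 and ACTN4) had ratios from 0.08 to 0.55. Spearman's correlation of length with the log2 ratio was 0.94 across the 10 genes in experiment 2 and 0.12 in experiment 1. All 14868 genes tested gave 0.63 and 0.08. These are descriptions across genes of the same libraries, and genes are not replicates.

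Between the controls, neither of which had TRIM40 reads, the order by length ran the opposite way. Control 2 divided by control 1, named by their experiments, ran from 1.64 for TMSB10 down to 0.466 for ACTN1, with a Spearman correlation with length of -0.94 across the 10 genes and -0.50 across all genes. Control 2 is also the divisor of the experiment 2 ratio, so these comparisons share a library. Between the Myc-TRIM40 libraries the correlations were -0.53 and -0.19. What part the length trend had in the ratios of experiment 2 was not tested.

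**Figure D2:**
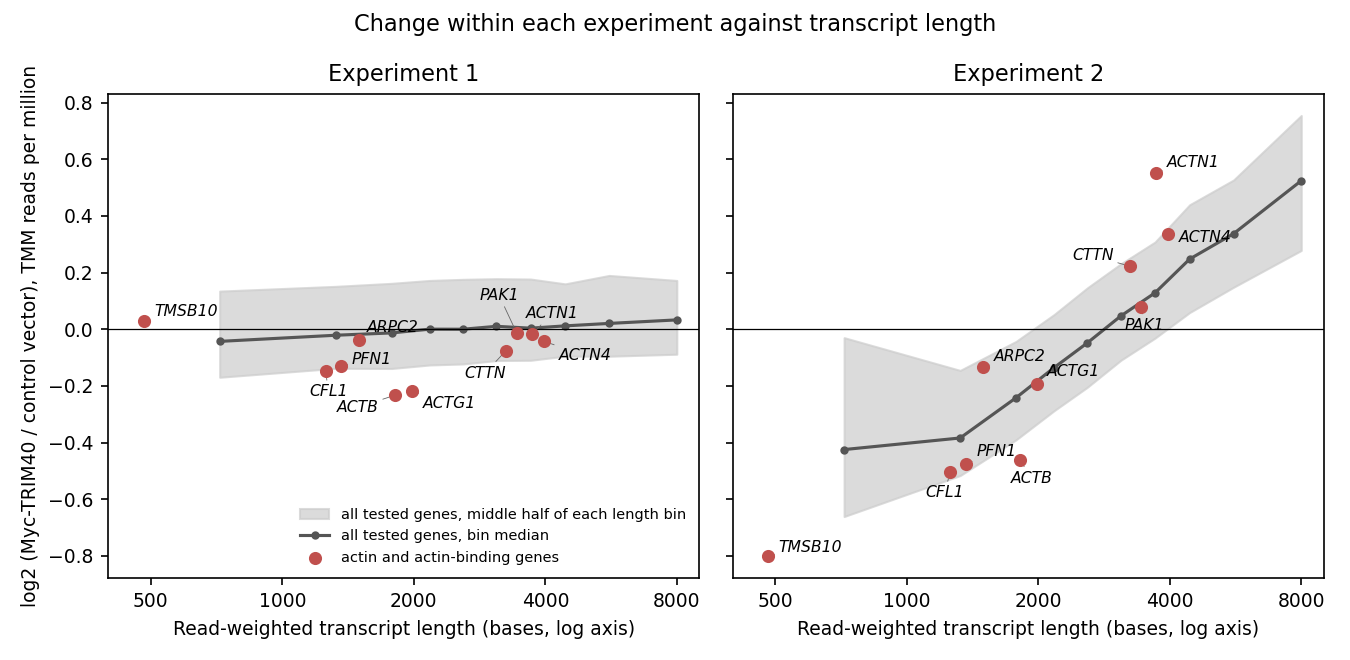
Log2 ratio of Myc-TRIM40 to control vector in TMM-normalized CPM against read-weighted transcript length (bases, log axis), for experiment 1 (left) and experiment 2 (right). The line joins the medians of 10 length bins of all tested genes, the grey band is their interquartile range, and red points are the 10 genes. The line is nearly flat in experiment 1 (-0.04 to 0.03) and climbs from -0.42 to 0.52 in experiment 2, where the points climb with it from TMSB10 to ACTN1.

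Set beside genes of like length, ACTB was low in both experiments. All tested genes were divided into 10 bins by length, and ACTB lay 0.22 below its bin's median on the log2 scale in experiment 1 and again in experiment 2. The interquartile range of a bin by construction leaves equal, fixed shares of its genes below and above it. Some of any 10 genes would thus lie outside. In experiment 1, ACTB, ACTG1 and CFL1 were below the interquartile range of their bins and the other 7 genes within it. In experiment 2, ACTB and TMSB10 were below it, ARPC2, ACTN1 and ACTN4 above it, and 5 within it. ACTG1, with a ratio of -0.19, was near the centre of its bin there.

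With a smooth length trend subtracted from the log2 ratios, ACTB stood at -0.22 in experiment 1 and -0.24 in experiment 2. PFN1 was at -0.11 and -0.14, and CFL1 at -0.13 and -0.14. ACTG1 was at -0.22 and -0.02. TMSB10 remained split, at 0.06 and -0.31, as did ACTN1, at -0.04 and 0.41, and ACTN4, at -0.06 and 0.16. Lower in both experiments on this scale were 5 of the 10 (ACTB, ACTG1, CFL1, PFN1 and PAK1), against 28.2% of all genes. In the edgeR fit with the trend as an offset, the log2 fold change of ACTB was -0.23, with an unadjusted p of 0.0381 and an adjusted p of 0.873 (0.562 to 1.00 over the alternatives).

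The sign of some ratios in experiment 2 depended on the scale. TPM multiplies all FPKM of a library by the same factor, and on that scale the median log2 ratio of all genes tested was 0.27. ACTG1 stood at 0.17 and ARPC2 at 0.23, below that median, where TMM-normalized CPM gave -0.19 and -0.13. The factor of TPM is shared by all genes of a library. With the length trend removed, ACTG1 was at -0.02 and ARPC2 at 0.17, beside a median of -0.007 for all genes tested. The cause of the turn of sign was not tested. PFN1 was at -0.12, CFL1 at -0.15 and ACTB at -0.10. Lower in both experiments by TPM were ACTB, CFL1 and PFN1, 3 of the 10 against 9.62% of all genes, and by FPKM 5 of the 10 against 18.8%. In experiment 1 the sign of ACTB, ACTG1, PFN1 and CFL1 was the same on all 4 scales. Whether the groups of these genes overlapped also depended on the scale. By TPM those of ACTB, ACTG1 and PFN1 overlapped and those of CFL1 did not. In FPKM only those of ACTG1 overlapped among these genes.

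**Figure D3:**
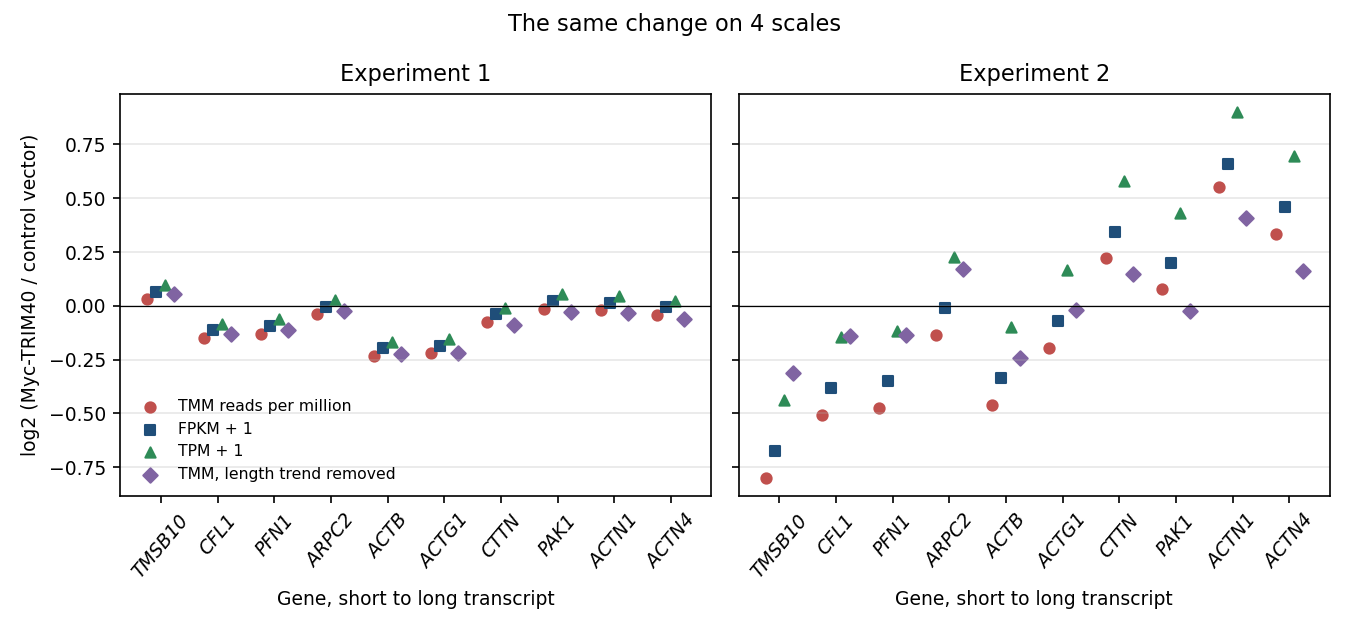
Log2 ratio of Myc-TRIM40 to control vector for each of the 10 genes, short to long, on 4 scales (TMM-normalized CPM, FPKM + 1, TPM + 1 and TMM reads with the length trend removed), for experiment 1 (left) and experiment 2 (right). The scales nearly coincide in experiment 1. In experiment 2 they spread, and ACTG1 lies at 0.17 by TPM and at -0.19 by TMM reads.

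The split of reads between transcripts gave few differences between libraries. ACTB, PFN1, CFL1 and TMSB10 have 1 listed transcript each. In ACTN4, the shorter transcript of 3951 bases was assigned 4251 and 679 reads in the controls and 4262 and 4472 in the Myc-TRIM40 libraries, so the control of experiment 2 was low (1.3% of the gene's reads against 4.07 to 6.70%). In ACTN1, transcripts other than the main one were assigned 399 and 177 reads under Myc-TRIM40 in experiment 1, and each had at most 15 in any other library. ARPC2's longer transcript held 90.4 to 93.9% of its reads, and PAK1's main transcript 81.2 to 85.4%. Reads that fit several transcripts were divided by estimate, so these shares have no error that can be given here.

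Several actin genes are known targets of serum response factor, which binds the CArG box and whose coactivators respond to free actin monomer. In RefSeq promoters (GRCh38.p14, 250 bases before to 50 after each start, both strands, for which the motif reads alike), a CArG box was found in 454 of 35116, or 1.29%. Of the 10 genes 8 had a promoter in that table and were searched, and ACTB and CTTN were not searched. ACTG1 and ACTN1 held a match, ACTN1 in 1 of its 4 promoters. The surrounding 70 bases, on the strand of the gene, are shown because they carry the motif in capitals, at chr17:81512854-81512923 (minus) and chr14:68977698-68977767 (minus).
ACTG1: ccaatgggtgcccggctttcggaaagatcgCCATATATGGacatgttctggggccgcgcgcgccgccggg
ACTN1: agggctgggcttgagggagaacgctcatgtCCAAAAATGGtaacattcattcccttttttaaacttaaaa
The match of ACTG1 begins 94 bases before the start, and that of ACTN1 171 bases before the start of the promoter that holds it. The 3 listed transcripts of ACTN1 span the same hg19 positions. Which of its promoters they start from was not examined. A match is a description of letters, and promoter activity was not measured.

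The wider actin system was read from 10 further lists of 101 genes, of which 89 had enough reads to be tested. None of the 89 was called in either direction by edgeR, where 0.0605% of all genes were, and 2 of them, ARPC5 and MYL9, were lower at an unadjusted p below 0.05 (2.25%, against 1.13% of all genes). At that level 0 of the 89 were higher, against 3.41% of all genes. Their smallest adjusted p was 0.888. The median log2 ratio of the 89 was -0.04 in experiment 1 and 0.09 in experiment 2. Lower in both experiments were 23 (25.8%), against 26.3% of all genes, and higher in both 17 (19.1%), against 28.6%.

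The Arp2/3 complex, to which ARPC2 belongs, had 8 other genes tested. Their median log2 ratio was -0.06 in experiment 1 and -0.37 in experiment 2, or -0.32 there with the length trend removed. Of the 8, 5 were lower in both experiments, against 26.3% of all genes, and 0 higher in both, against 28.6%. ARPC5, the smallest subunit's gene, was at 52.1 and 49.7 FPKM in the control and Myc-TRIM40 libraries of experiment 1, and at 92.9 and 25.7 FPKM in those of experiment 2. Its values in experiment 2 were both the highest and the lowest of the 4. The log2 fold change of ARPC5 was -1.04 (SE 0.41), with an edgeR unadjusted p of 0.0330 and an adjusted p of 0.888. At the other end ACTR2, which with ACTR3 forms the actin-like core of the complex, had a log2 fold change of 0.08 (edgeR adjusted p = 0.962).

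Among 13 genes of monomer binding and filament turnover, log2 fold changes ran from -0.55 for CORO1C, a coronin, to 0.23 for CAP2, a cyclase-associated protein. The 10 tested genes of the WASP and WAVE group, which switch Arp2/3 on, ran from -0.28 for BRK1 to 0.46 for WIPF2. In the 9 formins, which elongate unbranched filaments, the ends were -0.14 for FHOD1 and 0.37 for FMNL2. Each of these genes had an edgeR adjusted p of at least 0.888. The WASP and WAVE list and the formins had medians of 0.26 and 0.25 in experiment 2, and their median lengths were 5261 and 4770 bases. With the length trend removed these medians were -0.03 and -0.11.

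Capping proteins and tropomyosins, which stabilize ends and sides of filaments, ran from -0.32 for TPM2 to 0.25 for EPS8 over 10 genes. In the 9 tested cross-linkers and bundlers the lowest was VASP at -0.23. The highest, FLNC at 0.82, had 19 and 35 reads in experiment 1 and 0 in both libraries of experiment 2. The smallest edgeR adjusted p in these lists was 0.888.

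The study's own pathway runs through the kinases ROCK1 and LIMK1 to cofilin. ROCK1 was at 9.90 and 7.07 FPKM in the controls and 9.88 and 11.0 FPKM in the Myc-TRIM40 libraries, with a log2 fold change of 0.24 (SE 0.23, edgeR adjusted p = 0.892). The low value was the control of experiment 2, and ROCK1's transcript is 6648 bases long. LIMK1 stood at 0.04 (edgeR adjusted p = 0.984).

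Of 11 tested genes of the serum response factor pathway, 5 were lower in both experiments and 1 higher. Among all genes, 26.3% were lower in both and 28.6% higher in both. MYL9, a myosin light chain, was lowest with a log2 fold change of -1.68 (SE 0.72, edgeR unadjusted p = 0.0457, adjusted p = 0.888). It rests on 45 and 92 reads in the controls and 36 and 10 in the Myc-TRIM40 libraries. MKL2, a coactivator, was highest at 0.42. The median of this list was -0.18 in experiment 1 and -0.04 in experiment 2.

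**Figure D4:**
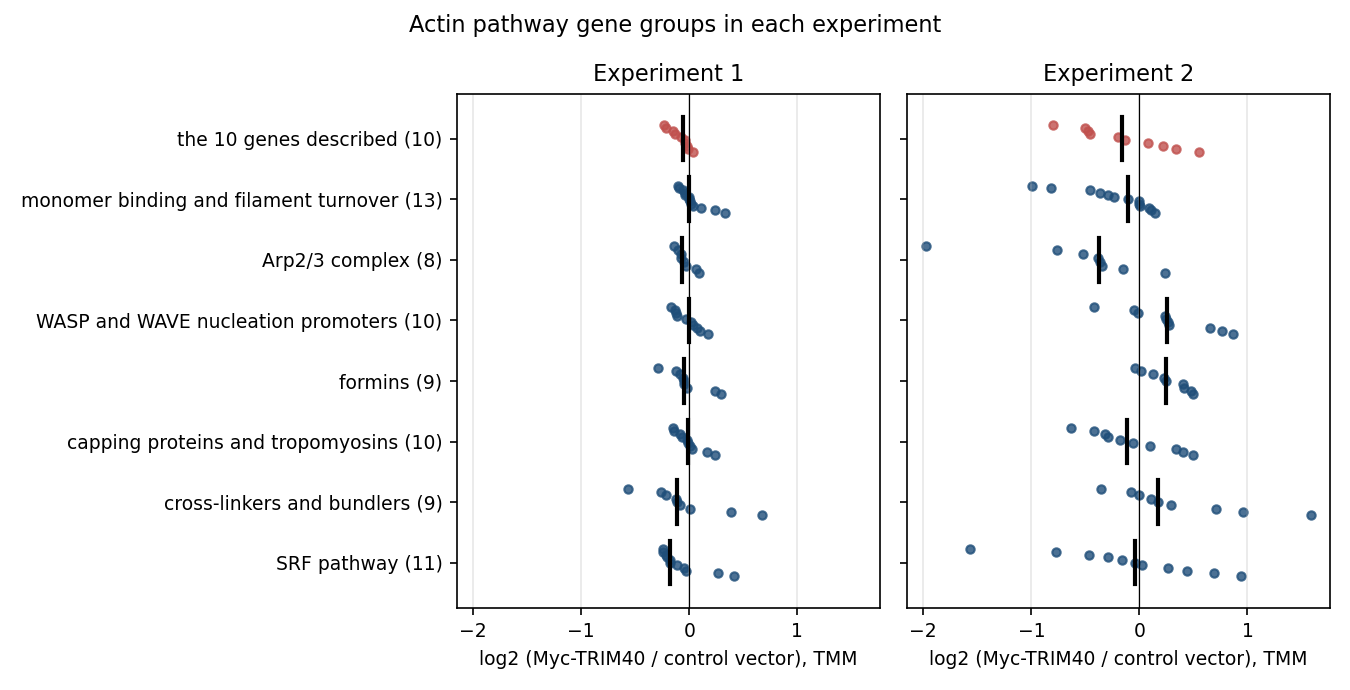
Log2 ratio of Myc-TRIM40 to control vector in TMM-normalized CPM for the 10 genes (red) and 7 lists of other actin-related genes (blue), in experiment 1 (left) and experiment 2 (right). Each point is 1 tested gene, black bars are medians and the number of tested genes is in parentheses. Medians in experiment 1 run from -0.18 for the serum response factor (SRF) pathway to 0.00 for monomer binding and filament turnover, and in experiment 2 from -0.37 for the Arp2/3 complex to 0.26 for the WASP and WAVE group.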

How the data were processed

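RNA of 4 HT-29 libraries was prepared with a TruSeq Stranded mRNA kit and sequenced on a NovaSeq system. The submitters' processing notes name HISAT2 2.1.0, StringTie 1.3.4d and hg19, without their settings. For each RefSeq transcript the authors deposited an estimated count, in whole numbers with no normalization. Deposited beside it were FPKM, the count divided by the length of the transcript and the size of the library, and that length in bases. The authors deposited TPM for experiment 2, and TPM of experiment 1 was computed here from FPKM.

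Reads were summed per gene ID, and the 14868 genes kept by filterByExpr were tested with edgeR 4.0.16 (R 4.3.3), using TMM, the quasi-likelihood test, Benjamini-Hochberg adjustment and a block for the experiment. Replicate numbers in the labels give the pairing, and each table holds 1 pair. The correlation of same-numbered libraries' deviations was 0.56. The fit had 1 residual degree of freedom and a common dispersion of 0.0484, so 2 experiments limit the precision. The 95% intervals used 8.44 degrees of freedom, of which 7.44 were the median prior that edgeR borrows across genes. Their width thus rests largely on the spread of other genes. The script was tested on simulated data. Ratios within an experiment have 1 library per condition and no test. The length trend was a lowess curve (span 0.3) of the log2 ratio on read-weighted length, and log2 FPKM and TPM used a pseudocount of 1. Alternatives used DESeq2 1.42.0 and limma 3.58.1. Shared windows and coding sequences came from GENCODE transcripts of the reference, and promoters from RefSeq.

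The members and lists were chosen with earlier results of these data known. Named genes were all 10 members, the highest and lowest tested gene of each list, genes past the threshold, ROCK1, LIMK1, TRIM40 and related actin genes by their reads. The rule also took in a gene and a list that are not reported here.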

Additional observations from a re-analysis of the deposited data

How the results depend on the processing

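In all 12 fits 0 of the 10 genes were called, and the smallest adjusted p of any was 0.431. With the length trend removed, ACTB had an unadjusted p under 0.05 in edgeR, as had 4.10% of all genes. Another fit took only the main transcript of each of the 10 genes and left all other genes unchanged. Its unadjusted edgeR p for ACTB was 0.0495, against 0.0501 in the main fit. There 4.53% of all genes passed, a share that could hardly differ from that of the main fit. ACTB has 1 listed transcript, so its own reads were the same in both. In the other fits to all 4 libraries 0 of the 10 passed. Of 130 fold changes under alternatives, 115 kept their direction, among them all those of ACTB, ACTG1, PFN1 and CFL1. In these 4 genes both Myc-TRIM40 libraries lay below both controls in TMM-normalized CPM. Their sign was thus all but fixed in advance when a library or an experiment was left out. TPM, by which ACTG1 was at 0.17 in experiment 2, was not among these alternatives. Without the replicate block the fold change of ACTB was -0.34 on the log2 scale, and dropping the block altered no direction or call of the 10 genes, although over all genes it took the calls from 6 higher and 3 lower to 0 and 0 (128 and 25 at an unadjusted p under 0.05). Over all genes, DESeq2 called 44 higher and 9 lower (357 and 202 unadjusted), limma 3 and 0 (587 and 134 unadjusted), the fit with no filter 0 and 0 (343 and 104) and that with the length trend removed 1 and 0 (383 and 227). The fits that left out a library called 15 and 4 without the control of experiment 1, 9 and 18 without its Myc-TRIM40 library, 2 and 0 (217 and 23 unadjusted) without the control of experiment 2 and 88 and 18 without its Myc-TRIM40 library. With the length trend removed, ARPC2 turned to 0.072 and PAK1 to -0.026. Leaving out each library (fitted without the block and chosen after seeing the data, a lone library being assumed to vary like the others) or each experiment gave ACTB -0.46 to -0.23, ACTG1 -0.28 to -0.14, PFN1 -0.48 to -0.13, CFL1 -0.57 to -0.10, TMSB10 -0.80 to 0.030, ARPC2 -0.26 to 0.083, ACTN1 -0.24 to 0.81, ACTN4 -0.33 to 0.68, PAK1 -0.013 to 0.078 and CTTN -0.098 to 0.23. Without the control of experiment 2, PAK1 was at -0.0026. Without the Myc-TRIM40 library of experiment 1, ARPC2 turned to 0.0037, ACTN1 to -0.098 and ACTN4 to -0.29. From replicate 1 alone (without replicate 2), ACTN1 was at -0.019, ACTN4 at -0.042 and CTTN at -0.076, and from replicate 2 alone at 0.55, 0.34 and 0.22. The 10 genes' median log2 ratio of FPKM + 1 was -0.023 in experiment 1 and -0.039 in experiment 2. It was -0.059 and -0.16 in TMM-normalized CPM, -0.048 and -0.11 centred on all genes, -0.037 and -0.14 centred on genes of at least 1 FPKM, 0.0080 and 0.20 in TPM and -0.074 and -0.023 with the length trend removed, the last 2 chosen after seeing the data. The causes were not tested. Depth limits no value of the 10 genes, and 2 experiments limit all.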
